A study of Mus musculus with 8 samples.

Results

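Zfp281 and Zfp148 are a pair of paralogous mouse genes that encode zinc finger transcription factors, and their transcripts were followed in embryonic stem cell (ESC) lines in which Zfp281 itself was the targeted gene. Every probe set that the platform annotation assigns to either symbol was taken, which gave 8 of the 45037 probe sets tested, 2 for Zfp281 and 6 for Zfp148. A probe set is a group of short oligonucleotides on an Affymetrix array that together read the transcript of a gene. Total RNA of 8 ESC lines was hybridized to Affymetrix whole-genome mouse expression arrays, with 1 array for each line. Lines 3, 3.2 and 3.3 were wild-type, lines 5 and 3.1 were heterozygous, and lines 7, 3.34 and 3.38 were Zfp281 null.

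The targeted allele was made in CJ7 ESCs by putting a floxed neomycin resistance cassette in place of both exons of Zfp281, so that the null lines lack the entire coding region. The cassette can be taken out with Cre recombinase, and the labels do not say in which lines it was. The lines were derived from blastocysts of heterozygous matings, the cells of all 3 genotypes were grown with LIF and serum on primary mouse embryonic fibroblasts, and no further treatment was given. The labels do not say whether these feeder cells were removed before extraction. Their Zfp281 genotype is not stated either. Each array is 1 line, so p-values measure a spread that holds differences between lines and technical error together.

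Both proteins are Krüppel-type factors with similar C2H2 zinc fingers and bind GC-rich elements in promoters. In ESCs, Zfp281 is found in complexes with the pluripotency factors Nanog, Oct4 and Sox2 and with subunits of the NuRD repressor, a histone deacetylase and nucleosome remodelling complex. Zfp148 is broadly expressed and is known as both an activator and a repressor of genes with GC-rich promoters.

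The sequences in front of the annotated transcription starts of both genes are shown because proteins of this kind bind GC-rich letters, and the question behind the comparison of the paralogs is whether Zfp148 RNA moved when Zfp281 was lost. They are RefSeq sequences of the GRCm38.p6 assembly, on the plus strand, and hold the 250 bases upstream of each start, outside the transcript. Capitals mark GGGCGG, the GC box, and GGGAGGGG, a G-rich element, on either strand, and the matches may overlap each other. Both motifs were chosen after the sequences had been seen.
Zfp281, chr1:136624651-136624900: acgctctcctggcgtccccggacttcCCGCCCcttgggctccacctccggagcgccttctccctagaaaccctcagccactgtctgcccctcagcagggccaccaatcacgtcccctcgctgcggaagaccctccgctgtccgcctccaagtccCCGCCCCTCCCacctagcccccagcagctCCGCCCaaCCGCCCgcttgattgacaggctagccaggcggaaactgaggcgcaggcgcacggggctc
Zfp148, upstream start, chr16:33380525-33380774: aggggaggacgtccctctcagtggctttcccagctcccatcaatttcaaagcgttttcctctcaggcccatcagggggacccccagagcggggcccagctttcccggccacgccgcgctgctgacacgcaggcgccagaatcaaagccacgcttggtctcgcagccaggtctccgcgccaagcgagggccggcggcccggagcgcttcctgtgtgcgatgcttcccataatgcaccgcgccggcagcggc
Zfp148, downstream start, chr16:33381052-33381301: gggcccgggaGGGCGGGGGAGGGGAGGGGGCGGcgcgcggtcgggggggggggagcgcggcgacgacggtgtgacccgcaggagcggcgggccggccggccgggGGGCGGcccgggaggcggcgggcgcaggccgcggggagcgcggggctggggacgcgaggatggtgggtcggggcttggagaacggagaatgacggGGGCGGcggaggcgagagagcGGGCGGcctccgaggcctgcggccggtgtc
The Zfp281 window held 4 matches to GGGCGG and 1 to GGGAGGGG, with a GC content of 69.6%. The window of the downstream Zfp148 start held 5 and 2 matches and had a GC content of 83.6%, while that of the upstream start held 0 of either and had 67.2%. Of 32851 such windows, 32.7% held GGGCGG and 10.9% held GGGAGGGG, and the median GC content was 52.4%. The matches describe letters only, and no binding was measured on these arrays.

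Depth of an array is set by how far its signal stands above background, and 28.4% to 35.3% of probe sets were called present on the 8 arrays. The cells carried ESC markers, since 11 of 12 were called present on every line, all but Utf1. In null against wild-type lines 11 of the 12 had a higher mean, 7 did not overlap, all higher, where 22.4% of all genes did not, and 2 passed as higher, where 1.13% of all genes passed. These were Dppa5a, with a log2 fold change of 1.23 (SE 0.15, adjusted p = 0.0301 from limma), and Dppa4, with 0.88 (SE 0.16, adjusted p = 0.0483 from limma). Without null line 7, wild-type line 3 or wild-type line 3.2, 0 of the 12 passed. Between 11 and 17 of 19 feeder fibroblast markers were also called present, with only Pdgfrb called present on no line, and 1 to 6 of 8 primitive endoderm markers were, with Foxa2 and Afp present on none. No feeder or endoderm marker passed the adjusted p from limma, and 4 and 0 of them had an unadjusted p under 0.05, where 2980 of 18193 genes did.

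Zfp281 RNA was lower in all 3 null lines than in every wild-type and heterozygous line on both of its probe sets. On 1452045_at wild-type lines 3, 3.2 and 3.3 had log2 values of 7.19, 8.36 and 7.58, heterozygous lines 5 and 3.1 had 6.74 and 6.74, and null lines 7, 3.34 and 3.38 had 3.39, 2.96 and 2.94. The genotypes fell into 3 levels that did not overlap, and line 3.2 was the highest of the wild-type lines. On 1426377_at, in the same order, the wild-type lines had 6.88, 7.93 and 6.72, the heterozygous lines 6.69 and 6.97, and the null lines 3.64, 5.06 and 5.23. Here heterozygous and wild-type lines overlapped, line 3.2 was again the highest, and the null lines were spread widely, with line 7 the lowest.

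**Figure D1:**
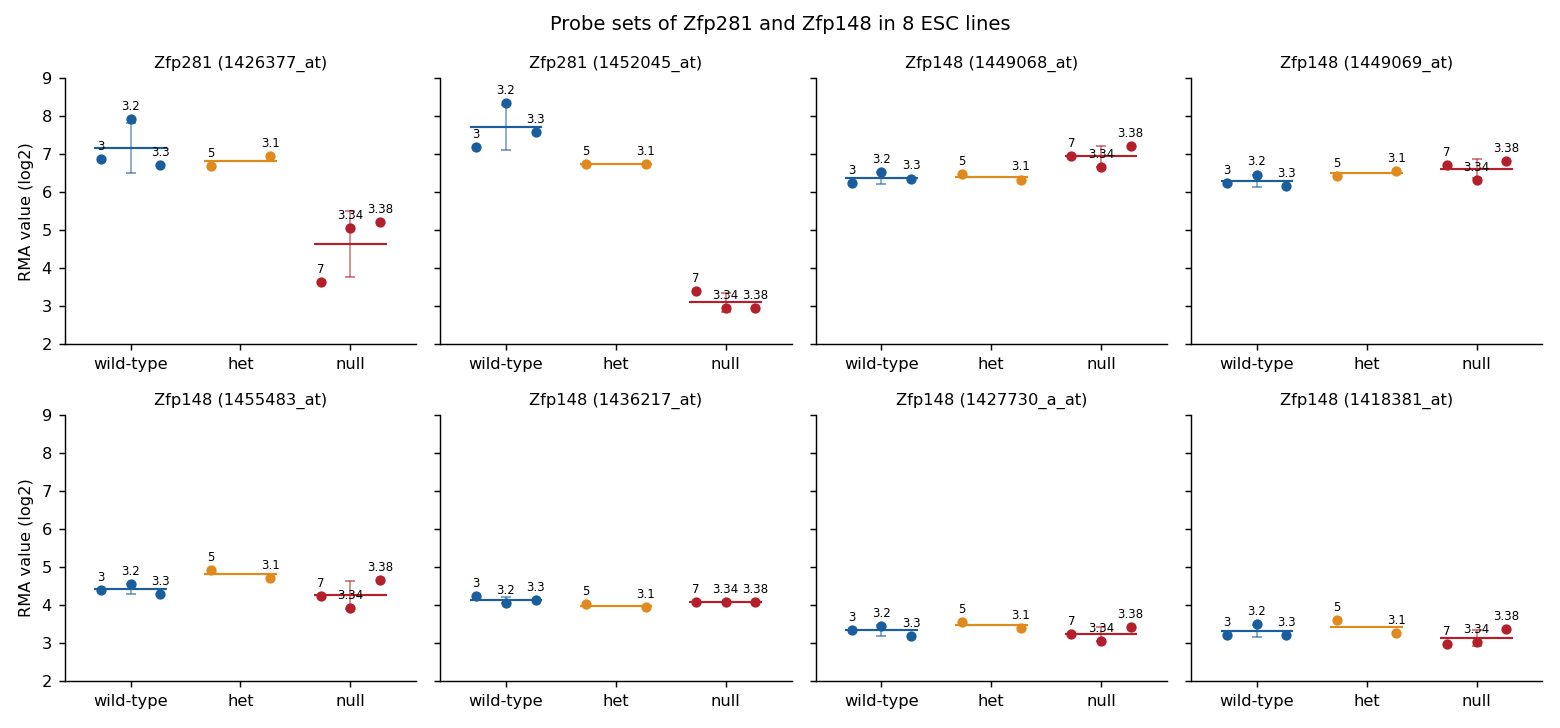
RMA values (log2, vertical axis) of the 2 Zfp281 and 6 Zfp148 probe sets in 8 ESC lines, with 1 point for each line, a line at the genotype mean and bars of 1 SD for wild-type and null (n = 3 each). Both Zfp281 probe sets are lower in null lines, at 2.94 to 3.39 and 3.64 to 5.23, and 1449068_at of Zfp148 is higher in null lines, at 6.66 to 7.21.

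On 1452045_at Zfp281 RNA fell by 4.61 on the log2 scale in null against wild-type lines (SE 0.27, 95% interval −5.23 to −4.00, adjusted p = 0.00186 from limma over 45037 probe sets). This was the most negative difference of all probe sets, and the null mean was 4.08% of the wild-type mean on the linear scale (95% interval 2.66 to 6.27). On 1426377_at the log2 fold change was −2.54 (SE 0.45, 95% interval −3.56 to −1.51, adjusted p = 0.0543 from limma), the seventh most negative, with a null mean at 17.3% of wild-type (95% interval 8.51 to 35.0). So 1 of the 8 probe sets passed the adjusted p, where 0.52% of all probe sets did, and 2 of 8, both of Zfp281, were past 2-fold, where 1.88% of all were. Adjusted over 18193 genes with 1 probe set each, the same −2.54 of 1426377_at had an adjusted p of 0.0467 from limma.

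The study pairs 4 of these lines by litter, null line 7 with wild-type line 3 and null line 3.38 with wild-type line 3.3. Within these pairs the log2 difference of null minus wild-type was −3.80 and −4.64 on 1452045_at, and −3.24 and −1.50 on 1426377_at. Both pairs had less Zfp281 RNA in the null line. With the litter as a block in these 4 lines, 1452045_at passed at −4.22 (SE 0.22, adjusted p = 0.0423 from limma), and 1426377_at did not at −2.37 (SE 0.40, adjusted p = 0.0912 from limma). For Zfp148 the pairs differed by 0.73 and 0.85 on 1449068_at, and the blocked value, 0.79, did not pass (SE 0.12, adjusted p = 0.0838 from limma).

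**Figure D2:**
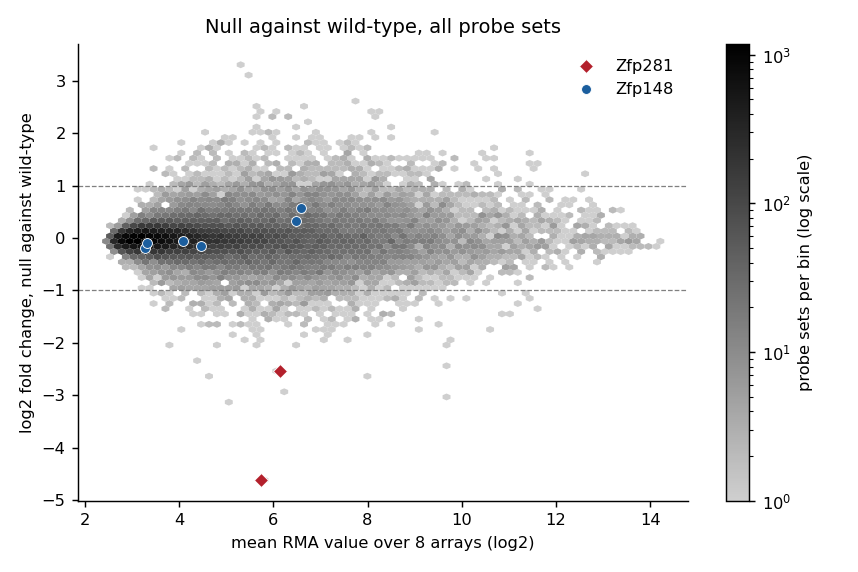
Log2 fold change of null against wild-type lines (vertical axis) over the mean RMA value of 8 arrays (log2, horizontal axis) for 45037 probe sets, binned with darker grey for more probe sets, with Zfp281 as red diamonds, Zfp148 as blue circles and dashed lines at 2-fold. The Zfp281 probe sets lie at −4.61 and −2.54, and those of Zfp148 between −0.19 and 0.57.

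The null lines differed from each other in what was left of the Zfp281 signal. In the linear signal of the Affymetrix software, wild-type lines 3, 3.2 and 3.3 had 189.8, 296.0 and 213.5 on 1452045_at, heterozygous lines 5 and 3.1 had 136.6 and 190.6, and null lines 7, 3.34 and 3.38 had 15.4, 7.3 and 10.8. The signal of 1426377_at was 131.6, 258.8 and 132.8 in the wild-type, 141.0 and 229.1 in the heterozygous, and 11.0, 54.9 and 29.9 in the null lines. On 1452045_at all null lines were low, while on 1426377_at lines 3.34 and 3.38 kept more signal than line 7. The mean signal of null lines was 4.79% of the wild-type mean on 1452045_at and 18.3% on 1426377_at.

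Detection calls, which compare matched and mismatched oligonucleotides of a probe set, did not follow this order. In wild-type and heterozygous lines both Zfp281 probe sets were called present, with detection p-values between 0.000244 and 0.000732 from the software's rank test over the oligonucleotides of 1 array. Among null lines, 1426377_at was called absent in line 7 and present in lines 3.34 and 3.38. The probe set with the larger drop, 1452045_at, was called present in null lines 7 and 3.34 and marginal in line 3.38. Its RMA value was nevertheless low on the array. It lay above 45.4%, 16.4% and 16.2% of the probe sets called absent on the same array in null lines 7, 3.34 and 3.38. For 1426377_at these shares were 58.9%, 91.2% and 93.6%, and for both probe sets in the other 5 lines they were at least 99.1%.

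**Figure D3:**
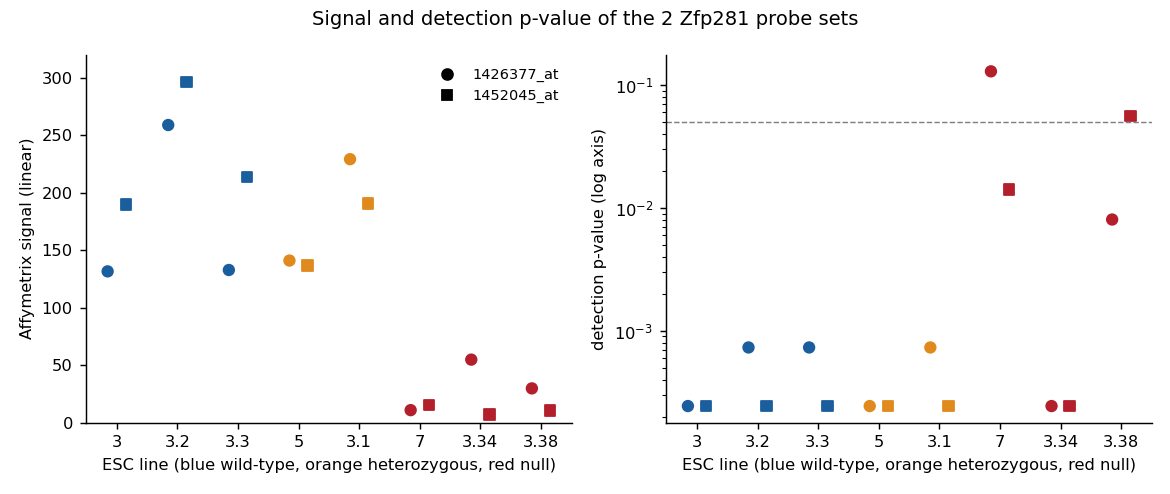
Linear Affymetrix signal (left) and detection p-value on a log axis (right) of both Zfp281 probe sets in 8 ESC lines, coloured by genotype, with circles for 1426377_at, squares for 1452045_at and a dashed line at 0.05. Signal in null lines is 7.3 to 54.9 and in the other lines 131.6 to 296.0, and 2 of the 6 null values lie over the dashed line.

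Both probe sets are annotated to the same transcript record, yet they gave different sizes of change. The within-array difference, 1426377_at minus 1452045_at, was −0.31, −0.43 and −0.86 (log2) for wild-type lines 3, 3.2 and 3.3. It was −0.055 and 0.22 for heterozygous lines 5 and 3.1, and 0.25, 2.10 and 2.28 for null lines 7, 3.34 and 3.38. Null and wild-type lines did not overlap, and null lines 3.34 and 3.38 stood apart from line 7. Its mean was −0.54 ± 0.29 (SD, n = 3) over wild-type lines and 1.54 ± 1.12 (SD, n = 3) over null lines, a shift of 2.08 with p = 0.1 in a two-sided exact permutation test over lines, the smallest p that 3 against 3 lines can give. Across the 8 arrays the Pearson correlation of the probe sets was 0.90, which describes points that share their libraries and the genotype step. The part of the transcript each probe set reads was not analysed here.

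Markers of feeder cells and a measure of RNA ends differed between the same lines. The summed signal of the 19 feeder markers, in units of the array median, was 320, 445 and 265 for wild-type lines 3, 3.2 and 3.3. It was 449 and 338 for heterozygous lines 5 and 3.1, and 246, 248 and 246 for null lines 7, 3.34 and 3.38. It was lower in null than in the other lines, and 16 of the 19 markers had their lower mean in the null rather than the wild-type lines. For Gapdh and beta-actin the array reads both transcript ends, and the 3′ minus 5′ log2 difference becomes larger with shorter RNA or cDNA. It was, in the same order, 4.86, 4.75 and 4.23 in wild-type, 4.49 and 4.80 in heterozygous, and 2.68, 3.71 and 3.51 in null lines. Line 7 was the lowest on this measure and on 1426377_at. With it as a covariate the log2 fold change of 1426377_at was −0.79 (adjusted p = 1.00 from limma) and that of 1452045_at −5.01 (adjusted p = 0.582 from limma), but 79.0% of its variance lay between genotypes. The part of feeder RNA and of RNA ends in the Zfp281 values was not tested. Null ESCs lack both exons of Zfp281, and the study reports that reverse transcription PCR found no Zfp281 transcript in its null ESCs. For heterozygous lines and for Zfp148, fewer cells with the transcript and less transcript in each cell cannot be told apart in bulk RNA.

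**Figure D4:**
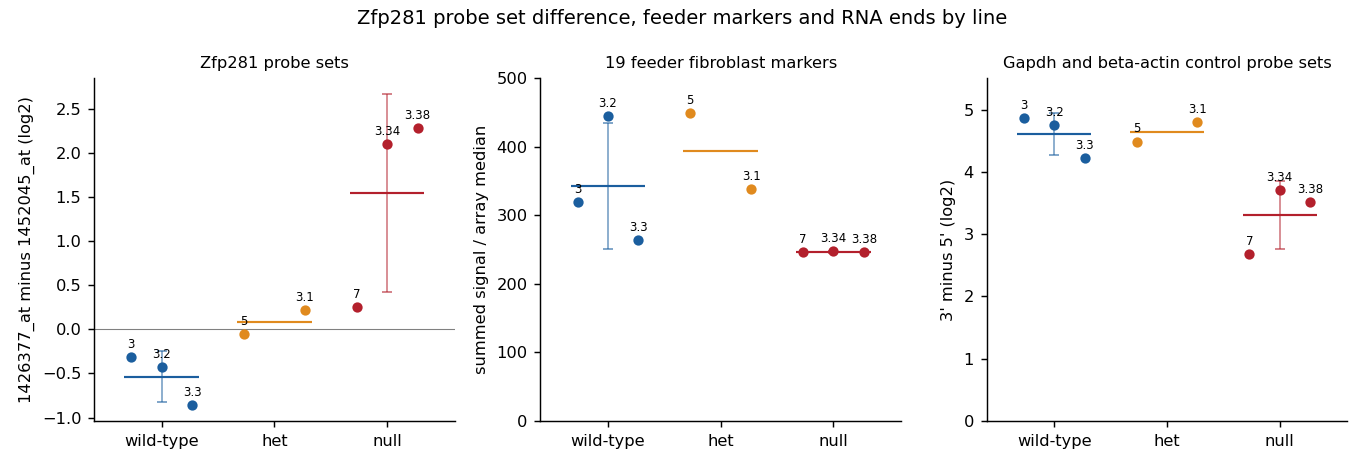
Within-array difference of the Zfp281 probe sets (log2), summed signal of 19 feeder markers over the array median, and 3′ minus 5′ difference of Gapdh and beta-actin (log2), with 1 point for each ESC line, a line at the genotype mean and bars of 1 SD for wild-type and null (n = 3 each). Null lines 3.34 and 3.38 are at 2.10 and 2.28 in the first panel and line 7 is at 0.25, while all null lines are at 246 to 248 in the second.

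Heterozygous lines overlapped wild-type lines on 1426377_at and lay below them on 1452045_at, and neither difference passed. Against wild-type, with 0.00222% of probe sets called, 0 of the 8 probe sets passed. An unadjusted p under 0.05 was found for 1 of the 8, and for 1848 of all 45037 probe sets. On 1452045_at the log2 fold change was −0.97 (SE 0.30, 95% interval −1.66 to −0.28, adjusted p = 0.989 from limma), or 51.1% of the wild-type mean (95% interval 31.6 to 82.4). On 1426377_at it was −0.35 (SE 0.50, 95% interval −1.49 to 0.79, adjusted p = 0.989 from limma), or 78.5% (95% interval 35.6 to 173). Without wild-type line 3.2 the value of 1426377_at was 0.027, so its direction rested on that line. The linear signal, in which line 3.1 had the highest array median, put the heterozygous mean at 70.2% of wild-type on 1452045_at and 106% on 1426377_at before any scaling.

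Null lines were also set against heterozygous lines, which leaves out the wild-type mean but shares the null lines with the comparison above. The wild-type lines still entered the estimate of the spread. Here 1 of the 8 probe sets passed, 1452045_at of Zfp281, where 0.0111% of all probe sets did, and it fell by 3.64 (SE 0.30, adjusted p = 0.0467 from limma), the most negative difference and the smallest p of all probe sets. The log2 fold change of 1426377_at was −2.19 (SE 0.50, adjusted p = 0.112 from limma). The call on 1452045_at was lost when any 1 null or heterozygous line was left out, with log2 fold changes of −3.79 to −3.57 and adjusted p-values up to 0.125 from limma.

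Over the number of wild-type Zfp281 alleles, 2, 1 or 0, the log2 value of 1452045_at rose by 2.31 per allele (SE 0.26, adjusted p = 0.0427 from limma), the largest slope of all probe sets, where 0.0178% passed. It was the only one of the 8 that passed, and the slope of 1426377_at was 1.27 (SE 0.26, adjusted p = 0.125 from limma). The call on 1452045_at held in 1 of 8 fits that left out a line. Heterozygous lines lay above the point midway between wild-type and null on the log2 scale, by 1.34 on 1452045_at (95% interval 0.72 to 1.95, adjusted p = 0.512 from limma) and by 0.92 on 1426377_at (95% interval −0.10 to 1.94, adjusted p = 0.748 from limma). Neither passed over all probe sets. On the linear scale the heterozygous and null means were 51.1% and 4.08% of wild-type on 1452045_at, and 78.5% and 17.3% on 1426377_at. A value midway on the linear scale lies above the log2 midpoint, so this distance does not show more RNA than 1 allele would give. The steps behind the slope of 1452045_at were unequal, −0.97 from wild-type to heterozygous and −3.64 from heterozygous to null lines.

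Zfp281 varied more between lines of 1 genotype than most probe sets. The SD of 1426377_at was 0.66 in wild-type and 0.87 in null lines (n = 3 each), larger than that of 98.7% and 99.6% of probe sets. That of 1452045_at was 0.60 in wild-type lines, larger than 98.2%, and 0.25 in null lines, larger than 82.2%. These shares are over all probe sets, for which 65.8% of detection calls were absent. They do not compare Zfp281 with probe sets of similar brightness.

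Zfp148, the paralog, had higher values in null lines on its brightest probe set, but no Zfp148 probe set passed in any comparison. On 1449068_at wild-type lines 3, 3.2 and 3.3 had log2 values of 6.24, 6.53 and 6.36, heterozygous lines 5 and 3.1 had 6.49 and 6.34, and null lines 7, 3.34 and 3.38 had 6.96, 6.66 and 7.21. All null lines were above all other lines, line 3.34 by little, and heterozygous lines lay within the wild-type range. The log2 fold change of null against wild-type was 0.57 (SE 0.15, 95% interval 0.22 to 0.91, adjusted p = 0.132 from limma), or 148% of the wild-type mean (95% interval 116 to 188). Of the 8 probe sets, 3 had null and wild-type lines that did not overlap, this one and both of Zfp281, the deleted gene. For Zfp148 it was thus 1 of 6 probe sets, near the 19.6% of all probe sets without overlap. The linear signal of 1449068_at was 75.9, 68.6 and 71.9 in wild-type, 75.6 and 87.7 in heterozygous, and 106.4, 97.3 and 108.0 in null lines, with the same separation.

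The second bright Zfp148 probe set, 1449069_at, annotated to the same transcript record as 1449068_at, gave a smaller difference. In the order used above, the wild-type lines had log2 values of 6.26, 6.47 and 6.17, the heterozygous lines 6.43 and 6.57, and the null lines 6.73, 6.33 and 6.81. Null line 3.34 lay within the wild-type range, and the log2 fold change was 0.33 (SE 0.15, 95% interval −0.01 to 0.66, adjusted p = 0.389 from limma). Over the 8 arrays both probe sets had a Pearson correlation of 0.80, and null line 3.34 was the lowest null line on each.

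The other 4 Zfp148 probe sets were dimmer and had slightly negative differences. They were 1455483_at, 1436217_at, 1427730_a_at and 1418381_at, with log2 values between 2.98 and 4.92 over all lines. Their log2 fold changes of null against wild-type were −0.15, −0.05, −0.10 and −0.19, with adjusted p-values of at least 0.693 from limma and overlapping lines. The last of them, 1418381_at, shares its transcript record with the bright pair. All but 1436217_at moved together from line to line, with Pearson correlations of 0.84 to 0.96 over the 8 arrays, and had correlations of −0.16 to 0.31 with the bright pair. Averaged over all 6 probe sets, the log2 fold change of Zfp148 was 0.07 (adjusted p = 0.866 from limma over genes). The positive value of the gene therefore depended on which probe sets were taken. Of those averaged, 1427730_a_at and 1418381_at had values among those of probe sets called absent, so the average says little about Zfp148 RNA.

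Zfp148 was called present on all 8 arrays by 4 of its probe sets, on 7 by 1449069_at and on 6 by 1436217_at. Despite these calls, the RMA values of 1427730_a_at and 1418381_at were low. They lay above 21.5% to 53.2% and 18.2% to 55.5% of the probe sets called absent on the same array. In heterozygous against wild-type lines the log2 fold changes of Zfp148 were between −0.15 and 0.40, with adjusted p-values of at least 0.989 from limma. The value at the top was that of 1455483_at, which had log2 values of 4.92 and 4.71 in heterozygous lines, above the 4.30 to 4.56 of wild-type lines. On 1449068_at it was 0.03 (95% interval −0.35 to 0.42). Against heterozygous lines, null lines differed by 0.53 on 1449068_at (95% interval 0.14 to 0.92, adjusted p = 0.241 from limma) and by −0.55 on 1455483_at (95% interval −1.01 to −0.09, adjusted p = 0.315 from limma), which are opposite in sign. The slope per wild-type allele was −0.28 for 1449068_at (SE 0.08, adjusted p = 0.206 from limma).

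The changes of the paralogs were set against each other within arrays. The log2 value of 1449068_at minus that of 1426377_at shifted by 3.10 between wild-type and null lines, from −0.80 ± 0.54 (SD, n = 3) to 2.30 ± 0.90 (SD, n = 3). The two-sided exact permutation test over lines gave p = 0.1, the smallest that this design allows. The log2 fold changes behind the shift were −2.54 for Zfp281 and 0.57 for Zfp148. Zfp281 was the targeted gene, so most of the shift was its own fall, which the design fixed in advance, and the test does not show a change of Zfp148. Over the 8 arrays the Pearson correlation of 1449068_at was −0.72 with 1426377_at and −0.80 with 1452045_at, which again holds the step between genotypes.

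Among 155 detected genes with a symbol starting with Zfp, Zfp281 was the lowest in null against wild-type lines and Zfp148 stood at place 145 counted from the lowest. Their median log2 fold change was −0.10. Over all genes, 1.13% passed the adjusted p, and 4 of the 155 did, of which 2 were lower, Zfp281 and Zfp946, and 2 higher, Zfp740 and Zfp57. The 155 were called present in every line of at least 1 genotype, while all genes include undetected ones. Zfp281 is also the targeted gene, so these shares do not show an excess among Zfp genes.

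Among partners and regulators of Zfp281, 1 gene passed the test, where 1.13% of all genes did. Of 19 such genes 13 were called present on every line and 3 on none, 0 passed as higher, 1 passed as lower and 18 did not pass. The median log2 fold change was −0.03, against −0.01 over all genes. The 1 that passed was Sox4, an HMG-box transcription factor, which fell by 1.67 on the log2 scale (SE 0.28, adjusted p = 0.0429 from limma). Its call was lost without null line 7 or 3.38, without wild-type line 3 or 3.2, and without either heterozygous line. Sox4 is listed because the study cites ZNF281, the human counterpart, as a target of SOX4 in prostate cancer cells. That Zfp281 recruits NuRD, whose subunits are also listed, is a hypothesis of the study. For 5 of the 19 the null and wild-type lines did not overlap, or 3 higher and 2 lower, where 22.4% of all genes did not. Pou5f1, which encodes Oct4, had a log2 fold change of 1.29 (SE 0.28, adjusted p = 0.0715 from limma) and Rbbp7, a histone-binding subunit of NuRD, one of −0.51 (SE 0.14, adjusted p = 0.107 from limma).

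Other zinc finger factors that bind GC-rich DNA went in both directions. Of 27 measured, 1 passed as higher, 2 as lower and 24 did not pass, where 1.13% of all genes passed. The median log2 fold change was 0.06. Zfp740 rose by 0.93 (SE 0.15, adjusted p = 0.0384 from limma) and was called present on 4 of 8 arrays. Vezf1, a factor known from blood vessel development, fell by 1.36 (SE 0.23, adjusted p = 0.0432 from limma), and Patz1, a BTB-domain zinc finger protein, fell by 0.75 (SE 0.13, adjusted p = 0.0467 from limma). All 3 calls were lost without null line 7 or 3.38 or without any 1 wild-type line, when 0 of the 27 passed. Without null line 3.34 1 passed, and without either heterozygous line 2 did. Null and wild-type lines did not overlap for 11 of the 27, or 7 higher and 4 lower, where 22.4% of all genes did not. Members with larger values that did not pass were Klf4, at 1.48 (SE 0.35, adjusted p = 0.0834 from limma), and Klf7, at −1.37 (SE 0.29, adjusted p = 0.0666 from limma). Zfp148, the closest relative of Zfp281 in the protein family, lay inside the range of these factors, at 0.57.

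**Figure D5:**
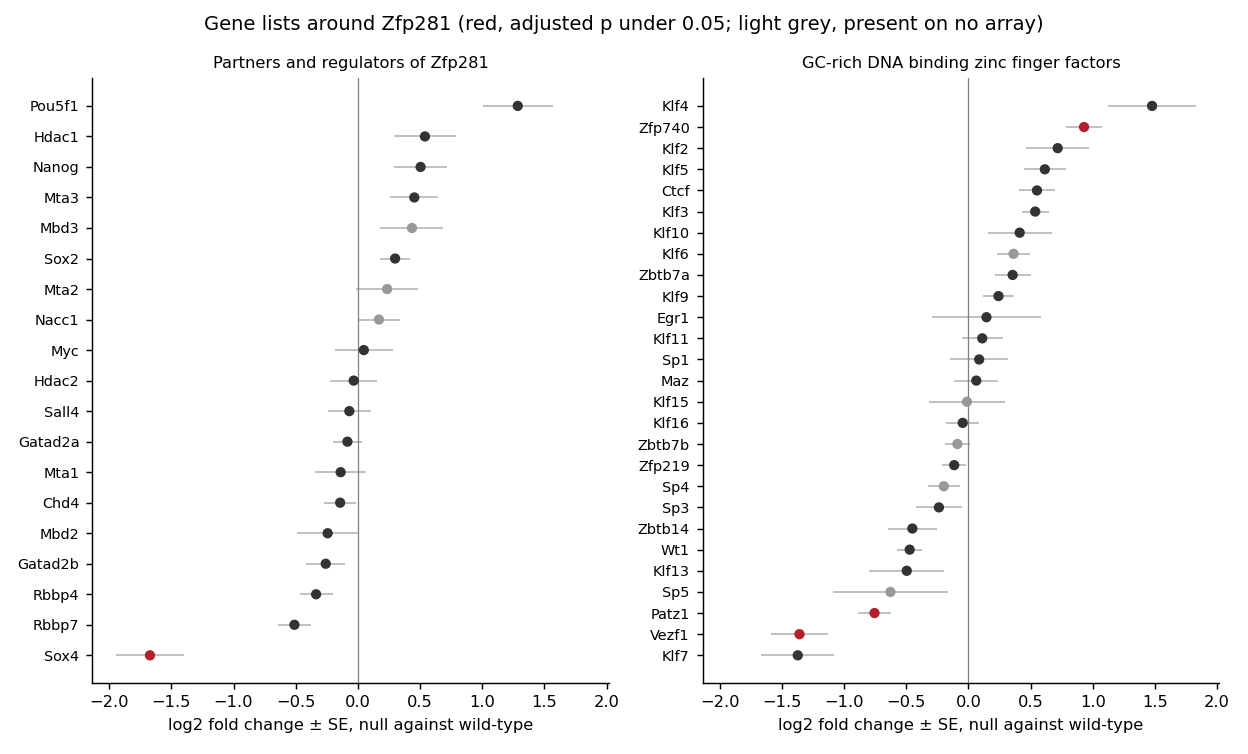
Log2 fold change of null against wild-type lines with its SE for 19 partners and regulators of Zfp281 (left) and 27 zinc finger factors that bind GC-rich DNA (right), 1 probe set for each gene, in red where the adjusted p from limma over 18193 genes was under 0.05 and in light grey where no array called the gene present. Sox4 at −1.67, Zfp740 at 0.93, Vezf1 at −1.36 and Patz1 at −0.75 are red.

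Of 19 lineage and pluripotency genes that the study names, 8 were called present on every line and 5 on none. In limma 0 of the 19 passed, where 1.13% of all genes did, and 5 had an unadjusted p under 0.05, where 2980 of 18193 genes did. Their median log2 fold change was −0.03, and the smallest p-values were those of Pou5f1, Sox2 and Fbxo15. Nanog, a target and partner of Zfp281, had a log2 fold change of 0.50 (SE 0.22, adjusted p = 0.296 from limma).

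The genes whose line-to-line pattern was most like that of a member are given as a description over 8 arrays that share the genotype step. For 1426377_at, among 421 genes that were detected and varied enough, these included Sh3bgrl (Pearson correlation 0.98), Gyg, which encodes glycogenin, Palld, which encodes the actin-binding protein palladin, and the syntaxin Stx7. The most opposite were Chtf18 (−0.99), a part of a clamp loader at replication forks, Rnaseh2a, a subunit of RNase H2, and Ehmt2, the histone methyltransferase G9a. For 1452045_at only 29 genes varied enough, and the most alike were Rragd (0.94), a Rag GTPase, Prom1, Plagl1, Sycp3 and Ldhb. The most opposite to it were Porcn (−0.95), which acylates Wnt proteins, Acp6 and Rps4l.

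For Zfp148 on 1449068_at there were 6210 such genes, and the most alike were Nop14 (0.98), a factor of ribosome assembly, Creld2, Inip, Slc49a4 and Efhd1. The most opposite were Casd1 (−0.97), Tfap2c and Gstm2. None of the genes named for Zfp148 recurred among those named for Zfp281, but the spread required of a candidate grew with the SD of the probe set. The lists thus came from different candidates, and their lack of shared names does not compare the paralogs.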

How the data were processed

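RNA of 8 lines was measured on 8 arrays, 1 for each line. The authors deposited log2 values that they had made from all arrays by RMA (robust multi-array average), and per the labels limma was used. No versions were stated. They also deposited linear signal values and detection p-values of each array, with unstated scaling. The software's calls were present up to 0.0488, marginal from 0.0502 to 0.0649 and absent above. All 8 log2 columns followed the signal of their own array best.

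The 64 control probe sets of 45101 were not tested. The annotation gave 1 gene for 34945, several for 932 and none for 9160, and the probe set with the highest mean stood for a gene. For Zfp281 this was 1426377_at, which had the higher mean in null lines (4.64 against 3.10), while 1452045_at was brighter in wild-type lines (7.71 against 7.18). Gene-level values of Zfp281 therefore come from the probe set with the smaller drop. Limma 3.58.1 in R 4.3.3 was fitted to the 8 arrays with 1 mean per genotype. P-values were adjusted by Benjamini-Hochberg over 45037 probe sets for the members and 18193 genes for the lists, with a threshold of 0.05. The scripts were tested on simulated data. Alternatives were leaving out each line, the signal values (array medians removed, floor of 1), quantile normalization, filters on detection, other samples or priors, a 3′ minus 5′ covariate, a mean over probe sets and, chosen after seeing the data, a block for the litter pairs that the study gives. Deviations of paired lines from their genotype means correlated at 0.073 and 0.049 over probe sets, against −0.098 to 0.10 for the other 7 combinations. RMA shrinks small differences at low values, and the number of arrays limits the precision. The members and gene lists were chosen with earlier results of these data known. Named genes were the members, by a fixed rule the 5 most and 3 least alike by correlation, and from each list up to 6 that passed or, where none did, the 3 with the smallest p. Of the genes most like Zfp281, 1 is not reported here. Some of the others were chosen after their values were seen. Python 3.11.15, numpy 2.4.6, pandas 2.3.3, scipy 1.17.1, matplotlib 3.10.9 and statmod 1.5.0 were also used.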

Additional observations from a re-analysis of the deposited data

How the results depend on the processing

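The paired analysis could use only 4 lines in 2 litter pairs, with the litter as a replicate block, and was chosen after seeing the data. It gave −2.37 on 1426377_at, −4.22 on 1452045_at (passed) and 0.79 on 1449068_at of Zfp148, turned the sign of 1455483_at (0.10) and 1427730_a_at (0.055), which did not pass, and called 119 probe sets, 1 partner, 2 GC-rich binding factors and 1 lineage or pluripotency gene. The same 4 lines without the block gave the same values and called 285 probe sets, 3 GC-rich binding factors and 0 lineage or pluripotency genes. On 1426377_at, the null against wild-type value of −2.54 passed with probe sets present in every line of a genotype (adjusted p = 0.0277 from limma), with those present on at least 1 array (0.0415) and with a trend and robust prior (0.0347), and the mean of both probe sets, −3.57, passed (0.0104). It passed in 0 of 8 fits without a line (−2.83 to −2.03). Against heterozygous lines −2.19 passed with the stricter filter (0.0483), as did the mean, −2.91 (0.0430). Heterozygous against wild-type ran from −0.58 to 0.027 without a line. Both Zfp281 probe sets met the stricter filter only through wild-type and heterozygous lines, where they were high. Passing after that filter therefore adds no support. On 1452045_at, null against wild-type passed without any line (−4.87 to −4.29) but not with signal values (−4.46) or the 3′ minus 5′ covariate (−5.01). Against heterozygous lines it ran from −3.79 to −3.57 without a line, and did not pass at −3.61 (signal), −3.67 (quantile) or −4.05 (covariate). The slope ran from 2.19 to 2.51, and did not pass at 2.23 (signal) or 1.84 (covariate).

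On 1449068_at of Zfp148, null against wild-type passed under no alternative (0.43 to 0.71 without a line). Heterozygous against wild-type ran from −0.039 to 0.11 without a line and was −0.17 with signal values. With the mean over probe sets, null against heterozygous was −0.059 and the distance from the midpoint 0.093. On 1455483_at, null against wild-type ran from −0.34 to 0.029 without a line. With signal values 1436217_at was at 0.46 for null and 0.20 for heterozygous lines. On 1418381_at the heterozygous value ran from −0.059 to 0.29 without a line.

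Of the partners, 0 to 2 passed without a line, 2 with the stricter filter, and 0 with signal values, the covariate, only both genotypes compared or the mean of probe sets. Of the GC-rich binding factors these were 0 to 2, 5, and 0, 0, with 1 by the mean. Of the lineage and pluripotency genes they were 0 to 1, and 1 with the filter. Of the 12 ESC markers, 0 to 3 passed without a line, 6 with the stricter filter, and 0 with signal values or the covariate. Over all probe sets, 234 passed in null against wild-type, 4 without wild-type line 3, 6 without 3.2, 7 without null line 7, 831 with the stricter filter, 481 with the looser one, 44 with only both genotypes, and 0 with signal values (3784 at an unadjusted p under 0.05) or the covariate (1164). The cause of these changes was not tested.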

Other observations

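With 3 lines against 3 or 2, small differences of Zfp148 could not be called: the 95% interval of 1449068_at ran from a fold of 1.16 to 1.88 in null lines and from 0.78 to 1.34 in heterozygous lines. Null values of 1452045_at lay among those of probe sets called absent on the same arrays. Probe sequences were not used here, so neither the deleted bases each Zfp281 probe set covers nor cross-hybridization between the paralogs was examined. RNA levels say nothing of protein.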
